A study of Rattus norvegicus with 6 samples.

Results

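Kinesin motor genes were followed in rat hippocampal neurons in which the nuclear receptor coactivator Ncoa3 had been silenced. The members were all genes whose symbol on the array platform begins with Kif or Klc and a number, each read from its brightest probe set, which gave 38 of the 18166 genes tested. Of the 38, 16 are transport kinesins of the neuron and 12 are mitotic kinesins, among them the depolymerase Kif2c. Another 6 work in cilia or depolymerise microtubules, and 4 fall in none of these lists. Kif1b stood only on 5 probe sets that also name other genes, and its values are not reported here. Kif14, Kif17, Kif19 and Kif21a were not analysed here.

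In the Ncoa3 shRNA group, 3 cultures were infected with adeno-associated virus carrying a short hairpin RNA (shRNA) against Ncoa3, and in the control shRNA group 3 cultures were infected with the same kind of virus carrying a control shRNA. All were primary neurons from the hippocampi of rat embryos at day 18, grown with 10 µM 5-fluorodeoxyuridine (FUDR), a nucleoside analogue that stops cells in cycle from multiplying. The virus, at 1800000 infectious units per ml, was added at 4 days in vitro and RNA came from cells at 14 days, so every culture had been infected and had been grown in FUDR. Each of 3 numbered experiments gave 1 array per group. The comparison asks how gene expression in neurons differs when Ncoa3 is diminished.

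Kinesins are motor proteins that turn ATP hydrolysis into steps along microtubules. In neurons, kinesin-1, a dimer of heavy chains (Kif5a, Kif5b or Kif5c) with cargo-binding light chains (Klc genes), kinesin-2 and kinesin-3 carry vesicles, mitochondria and RNA granules down axons and into dendrites. Another set of kinesins builds the spindle, moves chromosomes and completes cytokinesis, and belongs to dividing cells.

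Signals are log2 values after quantile normalization, which gives the 6 arrays 1 common distribution, and a change is the mean with Ncoa3 shRNA minus the mean with control shRNA. This was done because the deposited array medians were 6.81, 6.82 and 6.97 with Ncoa3 shRNA, against 7.10, 7.08 and 7.25 with control shRNA, and the median deposited difference over all genes was -0.25. All 3 Ncoa3 shRNA arrays share a maximum of 14.00 and all 3 control arrays one of 14.05, so each group shares 1 ceiling that the other lacks. Any processing run that followed the groups cannot be told apart from them, and the p-values leave its error out. On all 3 arrays of a group, 19.8% of probe sets had the same deposited value with Ncoa3 shRNA and 19.5% with control shRNA, and for such genes the spread between replicates comes from the normalization alone. All 12 measured neuron markers were above the level under which 95% of 226 olfactory and vomeronasal receptor genes lay (6.46, deposited), and so were all 6 astrocyte markers, all 5 of fibroblasts and vessel cells, 6 of 7 of the oligodendrocyte lineage and 3 of 6 of microglia. Levels of different genes come from different probes and are not ranked here.

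Ncoa3 was lower with its shRNA in each experiment. Its signal was 7.60, 7.60 and 7.45 with Ncoa3 shRNA in experiments 1, 2 and 3, against 8.63, 8.72 and 8.22 with control shRNA. The groups did not overlap, and the mean change was -0.97 ± 0.142 (SE), at an adjusted p of 0.00747 by limma. Without experiment 1 or experiment 2 the call was lost (adjusted p = 0.130 and 0.122).

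Kinesin genes past the test went both ways, as did all genes past it, and their number depended on the fit. Of the 38 members, 2 rose (Kif26b and Kif11), 4 fell (Kif22, Kif28p, Kif20b and Klc1) and 32 stayed above limma's adjusted p threshold of 0.05, while 10.5% of all genes rose and 9.04% fell. The members' shares were 5.26% and 10.5%. Their median change was -0.03, against 0.01 over all genes. The shares of all genes past the test in either direction were 19.5% in this fit, 39.3% with the experiment as a block, 47.2% in the deposited values and 60.2% in the deposited values with the block. In the fit with the block 3 members rose and 10 fell, where 20.8% and 18.6% of all genes did. Of the deposited values, 2 members' were higher and 21 members' lower, against 3.97% and 43.3% of all genes, and with the block 2 and 25, against 4.33% and 55.9%. Members lower with Ncoa3 shRNA in all 3 experiments numbered 16, and higher 8, where 33.5% and 36.8% of all genes were. In 9 members the Ncoa3 shRNA signals lay wholly below the control ones and in 4 wholly above, compared with 19.0% and 21.5% of all genes. Without experiment 1 or experiment 2, 0 members rose and 0 fell by limma's test, and without experiment 3, 8 rose and 11 fell. The number of all genes past the test in either direction, 3548, became 225, 99 and 8352 without experiments 1, 2 and 3. The member counts therefore moved in the same direction as the count of all genes.

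**Figure D1:**
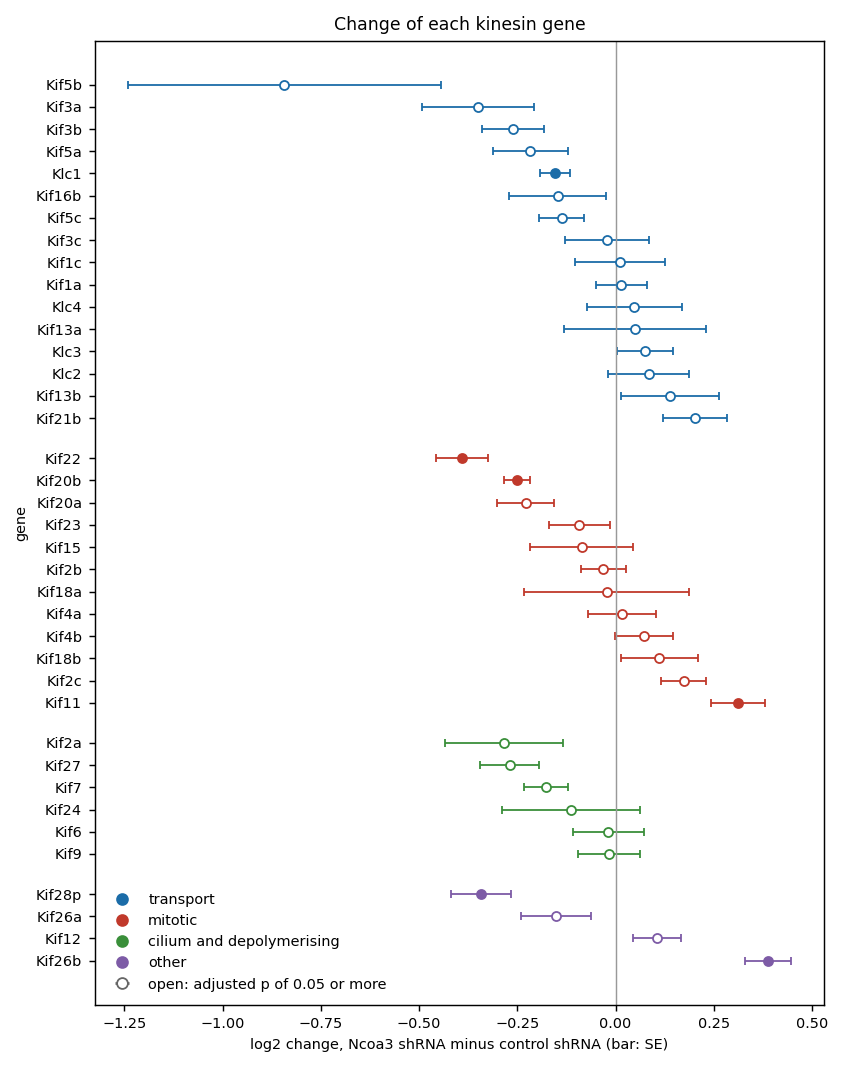
Log2 change (Ncoa3 shRNA minus control shRNA, quantile-normalized signals, 3 arrays per group) of each of the 38 kinesin genes, with the SE as a bar, filled where limma's adjusted p was under 0.05. Kif5b has the lowest change, -0.84, and the widest bar, and the 6 filled points lie between -0.39 and 0.39.

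Kif5b, the kinesin-1 heavy chain found in nearly all tissues, had the lowest change of any member and also the widest spread. Its signal (probe set 17716122) was 9.86, 9.18 and 10.75 with Ncoa3 shRNA in experiments 1, 2 and 3, against 10.81, 10.43 and 11.08 with control shRNA. In every experiment the Ncoa3 shRNA array was the lower of the pair, yet the groups overlapped, because Ncoa3 shRNA replicate 3 lay above control replicate 2. Its mean change, -0.84 ± 0.398 (SE over 3 arrays per group), equals 1.79-fold lower, with an adjusted p of 0.198 by limma. With the experiment number as a block it passed (adjusted p = 0.0471), and without Ncoa3 shRNA replicate 3 the change was -1.25 with an adjusted p of 0.0380. The other 8 fits that left out an array or an experiment did not pass (adjusted p up to 0.549), the change was -0.47 without Ncoa3 shRNA replicate 2, and in the deposited values the blocked fit did not pass (0.0542). By experiment the change was -0.95, -1.25 and -0.33. In experiment 2 only 0.0275% of all genes had a lower change than Kif5b, in experiment 1 only 0.187%, and in experiment 3 8.52%. Of the 500 genes nearest to it in mean signal, 0% had a lower deposited difference.

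The other heavy chains of kinesin-1 are the neuron-enriched Kif5a and Kif5c, which carry cargo such as neurofilaments, mitochondria and receptor vesicles. Kif5a stood at 12.06, 11.99 and 11.82 with Ncoa3 shRNA, against 12.26, 12.26 and 11.9996 with control shRNA. These values overlap only through control replicate 3, and the change of -0.22 ± 0.0956 passed in the fit with the block (adjusted p = 0.0161) but not without it (0.172). Kif5c stood at 11.78, 11.61 and 11.72 with Ncoa3 shRNA, against 11.86, 11.88 and 11.79 with control shRNA. No overlap was seen between its groups, though the change of -0.14 ± 0.0575 was not past the test (adjusted p = 0.154, and 0.125 with the block). With centred arrays Kif5a was at -0.07 and Kif5c at -0.0039 (adjusted p = 0.842 and 0.991), while in the deposited values they were at -0.35 and -0.29 (0.0634 and 0.0143). After quantile normalization all 3 heavy chain genes were lower with Ncoa3 shRNA in all 3 experiments, a pattern shared by 33.5% of all genes.

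Among the light chains, which link the heavy chains to cargo, Klc1 fell and its change was small. Klc1 (probe set 17819003), the main light chain of neurons, had 11.68, 11.67 and 11.65 with Ncoa3 shRNA, against 11.83, 11.84 and 11.79 with control shRNA. The groups did not overlap, and the change was -0.15 ± 0.0387 (SE; limma's adjusted p = 0.0406), or 1.11-fold lower. With the arrays centred on their medians in place of quantile normalization it was -0.02 (adjusted p = 0.950), and the call was also lost without any 1 array other than control replicate 3 (adjusted p up to 0.154), without a whole experiment 1 or 2 (up to 0.388) and without a trend in the prior variance (0.0637). Klc2 at 0.08, Klc3 at 0.08 and Klc4 at 0.05 were not past the test (adjusted p from 0.517 to 0.822). Klc2 and Klc4 were higher with Ncoa3 shRNA in experiments 1 and 2 and lower in experiment 3.

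The kinesin-2 genes Kif3a and Kif3b encode the partners of a heterodimer that carries N-cadherin vesicles in neurons and builds cilia. Kif3a had 10.49, 10.36 and 10.31 with Ncoa3 shRNA, against 10.75, 11.01 and 10.46 with control shRNA. Only control replicate 3 lay within the Ncoa3 shRNA range, and the change was -0.35 ± 0.143 (adjusted p = 0.146, and 0.0907 with the block). Kif3b had 9.98, 9.99 and 10.03 with Ncoa3 shRNA, against 10.17, 10.40 and 10.20 with control shRNA, without overlap. Its change of -0.26 ± 0.0786 came close to the threshold (adjusted p = 0.0680, and 0.0532 with the block). Both partners, like Kif5b, had their lowest change in experiment 2 (-0.64 for Kif3a and -0.42 for Kif3b). Kif3c, a partner of Kif3a that is enriched in neurons, had 11.60, 11.69 and 11.50 with Ncoa3 shRNA, against 11.67, 11.78 and 11.41 with control shRNA, and these values overlapped throughout (-0.02, adjusted p = 0.912).

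The kinesin-3 motor Kif1a, which carries synaptic vesicle precursors and dense-core vesicles, had 11.92, 11.85 and 11.71 with Ncoa3 shRNA, against 11.84, 11.84 and 11.76 with control shRNA. The difference was within the spread between replicates (0.01 ± 0.0648, adjusted p = 0.902). Nor did Kif1c at 0.01, Kif13a at 0.05, Kif13b at 0.14 and Kif16b at -0.15, all motors of vesicles and endosomes, pass limma's test (adjusted p from 0.466 to 0.962). With the block they did not pass either (0.0640 to 0.701). Kif16b was lower with Ncoa3 shRNA in all 3 experiments, and Kif1c and Kif13b were higher. In the deposited values Kif16b was at -0.44 (adjusted p = 0.0129, and 0.0141 with the block), where the median gene was at -0.25. Kif21b, a kinesin-4 motor of dendrites that also slows microtubule growth, went the other way from the heavy chains. It had 11.56, 11.63 and 11.38 with Ncoa3 shRNA, against 11.33, 11.41 and 11.22 with control shRNA. On this scale Ncoa3 shRNA was higher in each experiment, and the change of 0.20 ± 0.0824 passed in the fit with the block (adjusted p = 0.0187) and not without it (0.145). In the deposited values it was at 0.02 (adjusted p = 0.869, and 0.434 with the block) and lower with Ncoa3 shRNA in experiment 3, and with centred arrays it was at 0.31 (0.297). Over the 16 transport kinesins, 0 rose, 1 fell and 15 did not pass, with a median change of -0.01, while blocking by experiment gave 1 that rose and 3 that fell. On the deposited scale none was higher and 6 were lower past the test (9 with the block), where 43.3% of all genes were lower (55.9% with the block).

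**Figure D2:**
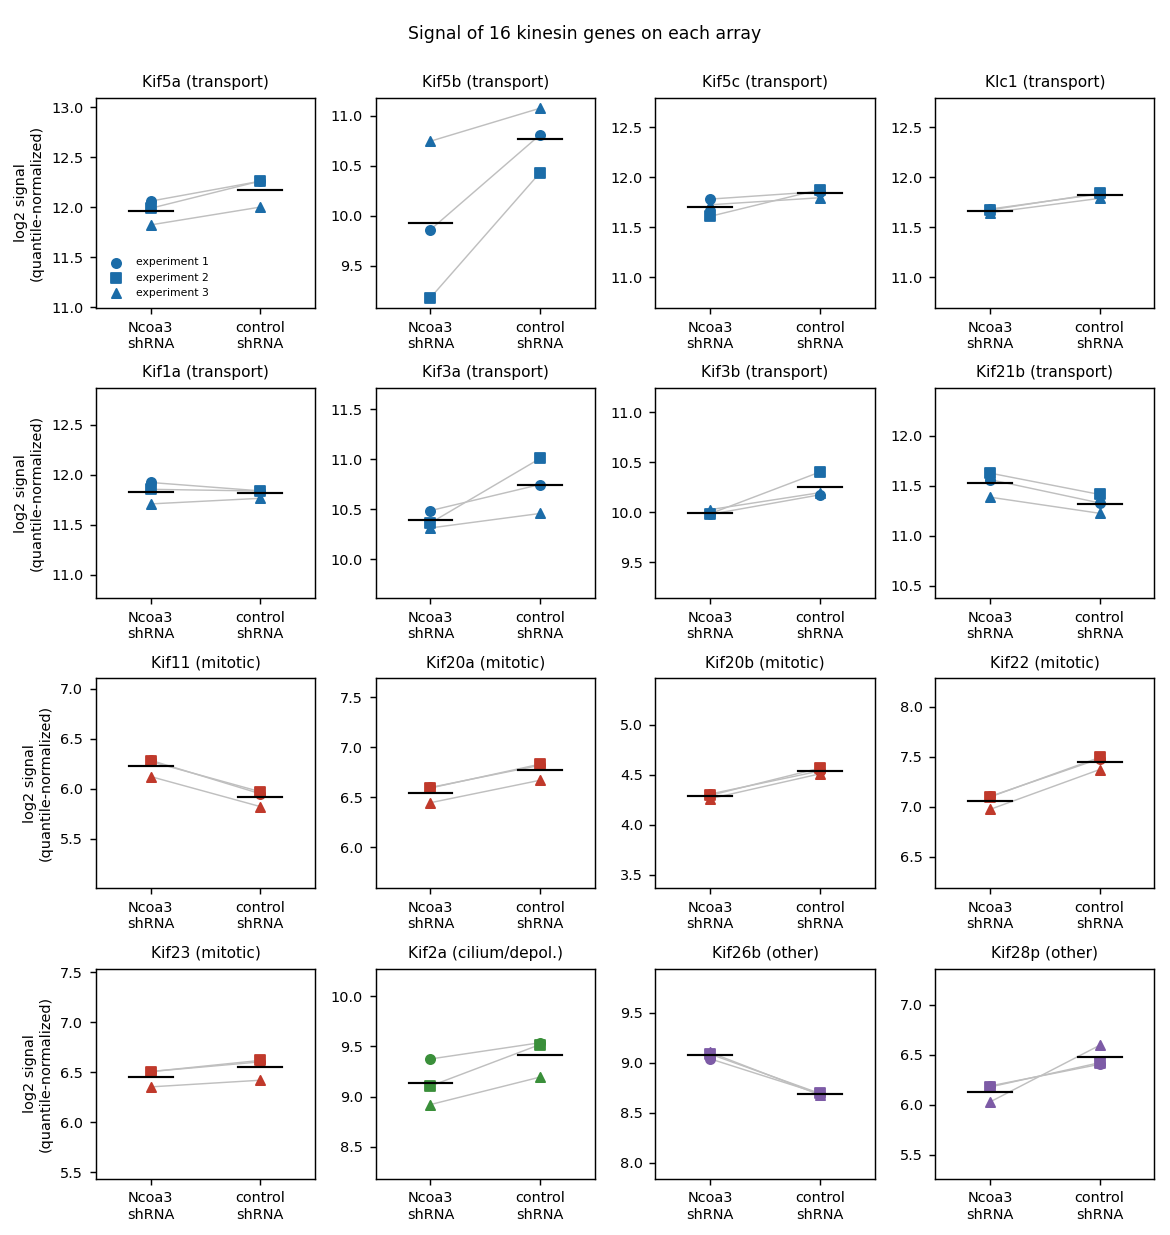
Quantile-normalized log2 signal of 16 kinesin genes on each array, with Ncoa3 shRNA left and control shRNA right, a grey line joining the arrays of an experiment and a black bar at each group's mean; every panel spans the same number of log2 units. Kif5b covers the widest range, 9.18 to 11.08. The groups do not overlap for Kif5c, Klc1, Kif3b, Kif11, Kif20a, Kif20b, Kif22, Kif26b and Kif28p.

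Of the 12 mitotic kinesins 1 rose, 2 fell and 9 did not pass with Ncoa3 shRNA, and the median change was -0.03. On the deposited scale 1 was higher past the test and 8 were lower, against 3.97% and 43.3% of all genes. A mean deposited signal above the 6.46 named above was seen for 7 of the 12. Kif22, a chromosome-arm motor (probe set 17637364), had 7.10, 7.10 and 6.97 with Ncoa3 shRNA, against 7.48, 7.49 and 7.37 with control shRNA. The groups were well apart in every experiment, with a change of -0.39 ± 0.0669 (SE; adjusted p = 0.0123 by limma), or 1.31-fold lower. That call was lost without control replicate 1 or 2 (adjusted p = 0.0671 and 0.0605) and without experiment 1 or 2 (up to 0.234). Its deposited value was the same on all 3 control arrays.

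Kif20b, a kinesin-6 of cytokinesis, fell by 0.25 ± 0.0334 on the log2 scale (adjusted p = 0.00561). It had 4.31, 4.29 and 4.26 with Ncoa3 shRNA, against 4.54, 4.57 and 4.51 with control shRNA. Kif11 rose by 0.31 ± 0.0690 (adjusted p = 0.0272), with 6.29, 6.27 and 6.12 with Ncoa3 shRNA, against 5.95, 5.97 and 5.82 with control shRNA. Kif11 is Eg5, the motor that slides spindle poles apart and that neurons also use to restrain axon growth. Both genes were dimmer than 6.46, and each had a single deposited value per group. Those values were 4.15 with Ncoa3 shRNA and 4.67 with control shRNA for Kif20b, and 6.09 and 6.05 for Kif11, so that the rise of Kif11 is 0.03 in the deposited values and their p-values do not measure variation between replicates. The call of Kif20b was lost without experiment 1 or 2 (adjusted p = 0.130 and 0.153) and with the arrays centred on their medians (0.109), and that of Kif11 without replicate 1 or 2 of either group (up to 0.107) and without experiment 1 or 2 (up to 0.287).

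Kif20a, the kinesin-6 of the central spindle, had 6.60, 6.59 and 6.45 with Ncoa3 shRNA, against 6.82, 6.83 and 6.67 with control shRNA. Here too 1 deposited value, 6.40 with Ncoa3 shRNA and 6.91 with control shRNA, stood on all arrays of a group, and the change of -0.23 ± 0.0729 was not past the test (adjusted p = 0.0795, and 0.00588 with the block). Kif23, the centralspindlin motor, had 6.51, 6.51 and 6.35 with Ncoa3 shRNA, against 6.60, 6.62 and 6.42 with control shRNA. Its groups overlapped, at -0.09 ± 0.0786 (adjusted p = 0.472, and 0.0412 with the block). On all 3 Ncoa3 shRNA arrays the deposited value of Kif23 was the same, and so it was on control replicates 1 and 2. The remaining 7 mitotic members lay between -0.09 for Kif15 and 0.17 for Kif2c, the depolymerase MCAK, with adjusted p from 0.0884 to 0.957. Kif18a, which dampens chromosome movement, had the widest spread of them, at 7.37, 6.66 and 7.43 with Ncoa3 shRNA, against 7.29, 7.08 and 7.16 with control shRNA. Kif4b is a pseudogene in the RefSeq table and may share sequence with Kif4a, so signals of that pair may not be separate.

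Markers of dividing cells other than kinesins also went both ways. Of 22 measured mitotic partner genes 3 rose, 5 fell and 14 did not pass, with a median change of -0.12, while blocking by experiment gave 4 and 11. On the deposited scale 3 were higher and 17 lower, against 3.97% and 43.3% of all genes. Blocking there gave 1 and 17, against 4.33% and 55.9%. The largest falls past the test were Prc1, which bundles the central spindle and recruits Kif4a and Kif23 there, at -0.48 (adjusted p = 0.00896), the kinetochore gene Ndc80 at -0.41 (0.00954) and Cenpf at -0.40 (0.0119). Those that rose were Ccnb2 at 0.46 (0.0247), the chromosomal passenger gene Cdca8 at 0.45 (0.00882) and Top2a at 0.29 (0.0330), which is at 0.0093 in the deposited values. Here 9 of the 22 had a single deposited value per group, and only 8 were above 6.46. Ndc80, Cenpf, Cdca8 and Top2a were among the 9, so their p-values do not measure variation between replicates, and all of them were below 6.46. Prc1 had the same deposited value on all 3 Ncoa3 shRNA arrays. Among cell types other than neurons, 3 of 6 microglia markers rose and 0 fell (1 rose in the deposited values), and their summed log2 signal ran from 9.20 to 9.48, against 8.94 to 8.97 with control shRNA. Summed markers of fibroblasts and vessel cells ran from 11.27 to 11.49 against 10.85 to 11.14 (1 of 5 rose and 0 fell, and 3 rose and 2 fell with the block), and those of astrocytes from 12.49 to 13.09 against 12.67 to 13.11 (0 of 6 passed). Those of the oligodendrocyte lineage ran from 10.84 to 11.05 against 10.88 to 11.02 (of 7, 1 rose and 2 fell), those of neurons from 15.74 to 15.83 against 15.76 to 15.85 (of 12, 1 fell), and those of ependyma from 7.44 to 7.77 against 7.40 to 7.93 (0 of 2 passed). Their part in the mitotic kinesin signals was not tested. In RNA from whole cultures, fewer cells of a type and less RNA per cell cannot be told apart.

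The promoters of mitotic and transport members are set side by side here. The RefSeq promoter table (build GRCr8) held windows of 300 bases, 250 before and 50 after the start, for 31 of the 38 members. The letters TTTGAA, the core of the element through which many mitotic genes are silenced outside division, stood on either strand in 5 of 10 mitotic promoters (Kif4a, Kif15, Kif20b, Kif22 and Kif23), in 0 of 13 transport promoters and in 18.1% of all 27457 promoters of the table. CCAAT, the NF-Y box, was in 6 of 10 mitotic, 3 of 13 transport and 37.7% of all promoters. GGGCGG, an Sp1 box, was in 7 of 10, 12 of 13 and 34.9%, and AGGTCA, the half-site bound by many nuclear receptors, in 1 of 10 (Kif18b), 1 of 13 (Klc4) and 15.7%. The 250 bases before the start are shown for 4 mitotic members and for the transport members Kif5b and Klc1, 5′ to 3′ on the gene's strand, with TTTGAA and CCAAT or their reverse complements in capitals. They lie at chr18:26504172-26504421, plus strand (Kif20a), chr1:241840766-241841015, plus strand (Kif20b), chr1:191080879-191081128, minus strand (Kif22), chr8:71320585-71320834, minus strand (Kif23), chr17:56185136-56185385, plus strand (Kif5b) and chr6:136644350-136644599, plus strand (Klc1).
Kif20a: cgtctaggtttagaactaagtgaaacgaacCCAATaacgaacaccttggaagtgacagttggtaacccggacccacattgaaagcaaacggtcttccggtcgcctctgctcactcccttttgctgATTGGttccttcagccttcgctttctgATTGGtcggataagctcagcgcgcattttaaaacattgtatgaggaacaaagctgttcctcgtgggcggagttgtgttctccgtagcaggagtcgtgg
Kif20b: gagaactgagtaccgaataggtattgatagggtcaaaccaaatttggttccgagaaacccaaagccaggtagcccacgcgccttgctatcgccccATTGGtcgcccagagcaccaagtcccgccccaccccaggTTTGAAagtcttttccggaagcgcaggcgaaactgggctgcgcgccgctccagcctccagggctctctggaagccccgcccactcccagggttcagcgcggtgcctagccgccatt
Kif22: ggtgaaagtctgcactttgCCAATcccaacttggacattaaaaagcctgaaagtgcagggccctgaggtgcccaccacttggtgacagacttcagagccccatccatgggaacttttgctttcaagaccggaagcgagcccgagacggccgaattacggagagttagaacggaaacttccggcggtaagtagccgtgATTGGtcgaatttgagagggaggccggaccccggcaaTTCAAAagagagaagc
Kif23: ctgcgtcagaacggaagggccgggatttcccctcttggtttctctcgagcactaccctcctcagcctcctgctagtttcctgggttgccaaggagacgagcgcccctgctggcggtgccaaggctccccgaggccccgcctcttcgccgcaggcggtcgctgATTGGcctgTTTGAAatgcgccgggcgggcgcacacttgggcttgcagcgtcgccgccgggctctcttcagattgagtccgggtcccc
Kif5b: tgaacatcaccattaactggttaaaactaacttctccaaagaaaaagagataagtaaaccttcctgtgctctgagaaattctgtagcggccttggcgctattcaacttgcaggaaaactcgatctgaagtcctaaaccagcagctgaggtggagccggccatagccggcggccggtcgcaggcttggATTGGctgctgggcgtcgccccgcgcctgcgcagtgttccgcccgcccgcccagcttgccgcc
Klc1: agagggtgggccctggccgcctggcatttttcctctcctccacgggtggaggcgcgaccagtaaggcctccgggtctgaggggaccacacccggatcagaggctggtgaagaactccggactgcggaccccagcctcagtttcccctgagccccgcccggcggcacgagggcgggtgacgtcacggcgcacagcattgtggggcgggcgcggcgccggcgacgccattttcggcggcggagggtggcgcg
Kif20a has 3 CCAAT matches and no TTTGAA in this window. Kif20b, Kif22 and Kif23 carry both, the CCAAT match on the opposite strand beginning 155, 53 and 88 bases before the start. Kif5b holds 1 CCAAT match, 63 bases before the start, and Klc1 neither. Among the 6 members past the test, TTTGAA stood in the 300-base windows of Kif20b, Kif22 and Kif28p, which fell, and of Kif26b, which rose, and not in those of Klc1, which fell, and Kif11, which rose. Kif4a at 0.02, Kif15 at -0.09 and Kif23 at -0.09, which did not pass, hold it too. A match describes these letters and is not a measured binding site.

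Of the 6 kinesins of cilia or of microtubule disassembly 0 rose and 0 fell. All 6 changes were below 0, from -0.28 to -0.02, as were those of 8834 of the 18166 genes tested. The depolymerase Kif2c, at 0.17 and higher with Ncoa3 shRNA in all 3 experiments, was counted with the mitotic kinesins, as was Kif2b at -0.03. On the deposited scale 4 of the 6 were lower past the test, and all 6 with the block, against 43.3% and 55.9% of all genes. Kif2a, the depolymerase that prunes axon branches, had 9.38, 9.10 and 8.92 with Ncoa3 shRNA, against 9.54, 9.52 and 9.19 with control shRNA. It was lower in each experiment with overlapping groups, and its change of -0.28 ± 0.150 passed only with the block (adjusted p = 0.0393, and 0.245 without). Kif27 at -0.27 (adjusted p = 0.0547) and Kif7, the ciliary regulator of Hedgehog signalling, at -0.18 (0.0785) also passed with the block (0.00509 and 0.0223), and each had 1 deposited value on all 3 arrays of a group. Kif24 at -0.11, Kif6 at -0.02 and Kif9 at -0.02 did not pass in either fit. Among 16 measured genes of intraflagellar transport, the cargo trains that kinesin-2 pulls along cilia, 0 rose and 1 fell. It was Ift74 at -0.67 ± 0.0798 (adjusted p = 0.00379), with 6.997, 6.99 and 6.87 with Ncoa3 shRNA, against 7.61, 7.75 and 7.52 with control shRNA.

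Kif26b rose the most of any member. This kinesin-11 gene, whose product binds microtubules and is known from kidney development and cell migration in mice, had 9.04, 9.09 and 9.10 with Ncoa3 shRNA, against 8.69, 8.69 and 8.68 with control shRNA (probe set 17682462). The groups were wholly separate, and the change was 0.39 ± 0.0582 (SE; adjusted p = 0.00803 by limma), or 1.31-fold higher. It was also higher in the deposited values, by 0.11 (adjusted p = 0.0165), where most genes were lower. There each group had only 2 distinct values on its 3 arrays. Centred arrays gave the same size with an adjusted p of 0.110, and the call was lost without control replicate 1 (0.0527), experiment 1 or experiment 2 (up to 0.217). After quantile normalization the summed signal of fibroblast and vessel markers was also higher with Ncoa3 shRNA. Only Dcn of the 5 rose (0.52, adjusted p = 0.0385), and 2 changes were below 0. In the deposited values Dcn was at 0.31 (adjusted p = 0.0948), and 0 of the 5 rose and 4 fell past the test. The part of these markers in the rise of Kif26b was not tested. Kif26a, a relative of Kif26b, was at -0.15 (adjusted p = 0.288) and Kif12 at 0.10 (0.289).

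Kif28p fell by 0.34 ± 0.0764 on the log2 scale (adjusted p = 0.0281, and 0.0505 with the block). It had 6.19, 6.18 and 6.03 with Ncoa3 shRNA, against 6.41, 6.42 and 6.59 with control shRNA. Its deposited value was the same on all 3 Ncoa3 shRNA arrays. The groups did not overlap, its mean deposited signal of 6.30 was below 6.46, and it was the only member with more than 1 probe set of its own. The call was lost without replicate 1 or 2 of either group (adjusted p up to 0.0829) and without experiment 1 or 2 (up to 0.226).

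After quantile normalization many kinesins were lowest in experiment 3, as were many other genes. In 25 of the 38 members the array of experiment 3 was the lowest in both groups on this scale, against 51.1% of all genes. The experiment 3 arrays had the highest deposited median of each group, 6.97 and 7.25. Kif11, Kif20a, Kif20b and Kif27 are among the 25 with 1 deposited value per group, so their order comes from the normalization alone. Deposited values were not counted this way. Kif5b alone among the members was highest in experiment 3 in both groups after normalization, against 17.5% of all genes. By a moderated F-test over the experiments, 7 members (18.4%) differed between experiments, against 18.8% of all genes. They were Kif1c, Kif5a, Kif11, Kif13a, Kif20a, Kif23 and Kif27, of which 3 had 1 deposited value per group. That count was 23 with centred arrays and 0 to 3 with 1 array left out. The share of all genes in those fits was not counted, so these counts cannot be set against it. In the deposited values only Kif1c passed, where 1.91% of all genes did. Kif1c had 7.29, 7.29 and 7.02 with Ncoa3 shRNA and 7.27, 7.29 and 7.01 with control shRNA, so on this scale its arrays differed by experiment and hardly by shRNA. Its deposited value was the same in experiments 1 and 2, at 7.10 with Ncoa3 shRNA and 7.38 with control shRNA. The difference between experiments therefore rests on experiment 3, with 1 array per group. Its deposited values differed by -0.28 between the groups (adjusted p = 0.0128), where the median gene was at -0.25. Kif13a was similar on the quantile-normalized scale, with 8.85, 8.67 and 8.30 against 8.71, 8.69 and 8.28 with control shRNA. Its deposited difference was -0.23 (adjusted p = 0.396, and 0.0436 with the block).

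**Figure D3:**
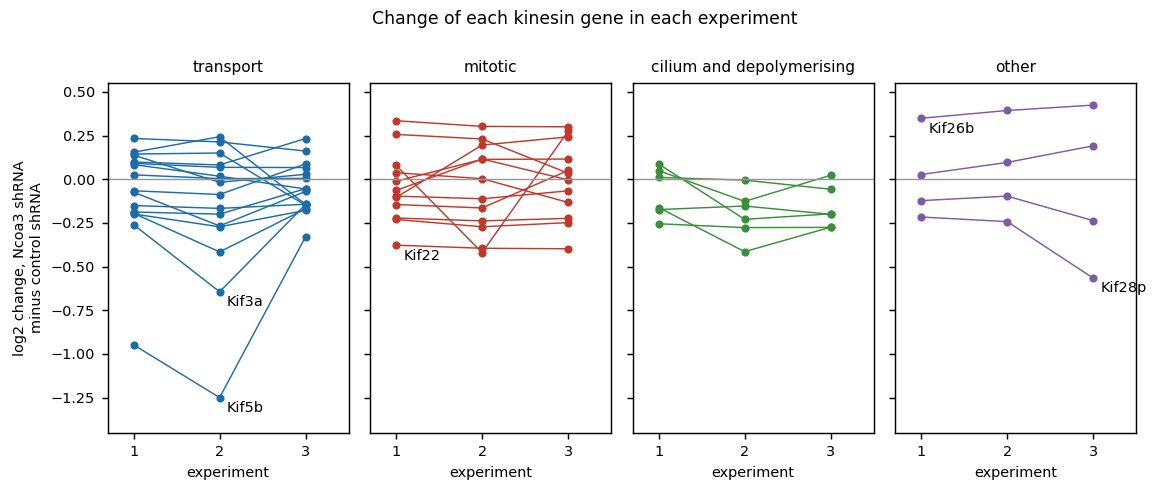
Log2 change (Ncoa3 shRNA minus control shRNA, quantile-normalized signals) of each kinesin gene in experiments 1, 2 and 3, by list; each line is 1 gene. Kif5b lies lowest in all 3 experiments among the transport kinesins, at -0.95, -1.25 and -0.33, while Kif22 and Kif26b stay near -0.39 and 0.39.

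Of 26 measured cargo adaptors and regulators of kinesins 0 rose and 1 fell, with a median of -0.04, and with the block 1 rose and 5 fell. The gene that fell was Trak2, the adaptor that couples Kif5 motors to mitochondria. It had 10.13, 10.15 and 10.22 with Ncoa3 shRNA, against 10.42, 10.44 and 10.51 with control shRNA, a change of -0.29 ± 0.0590 (adjusted p = 0.0220). The deposited value of Trak2 was the same on all 3 Ncoa3 shRNA arrays. Of the 26 measured subunits and cofactors of dynein, the motor that runs in the opposite direction, 1 rose and 2 fell. Dctn1, the large dynactin subunit that holds dynein to the microtubule, rose to 10.97, 10.99 and 11.07 with Ncoa3 shRNA, against 10.52, 10.51 and 10.50 with control shRNA (0.50 ± 0.0518, adjusted p = 0.00248). Nde1, a dynein regulator, was at -0.32 (0.0286) and the dynactin subunit gene Dctn5 at -0.15 (0.0280). Nde1 and Dctn5 each had the same deposited value on all 3 Ncoa3 shRNA arrays. With the block 5 of the 26 dynein and dynactin genes rose and 6 fell.

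Of 19 tubulins and tubulin-modifying enzymes, which make the tracks, 1 rose and 1 fell. Tuba1b, an alpha tubulin whose sequence is close to that of other alpha tubulins, was at 0.47 (adjusted p = 0.0362) and Ttll4, an enzyme that adds glutamates to tubulin, at -0.34 (0.0130). Of the 3 measured motors named outside the Kif number series, Kifc1, a minus-end mitotic motor, rose by 0.30 (0.0344), with 6.77, 6.998 and 6.84 with Ncoa3 shRNA, against 6.55, 6.57 and 6.60 with control shRNA. Deposited differences were smaller: Kifc1 was at 0.01 and Tuba1b at 0.30, and neither passed (adjusted p = 0.914 and 0.139). The counts higher and lower in the deposited values were 0 and 7 for the adaptors, 1 and 5 for dynein and dynactin, 0 and 7 for the tubulins and their enzymes, and 0 and 5 for intraflagellar transport. Of all genes, 3.97% were higher and 43.3% lower on that scale.

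**Figure D4:**
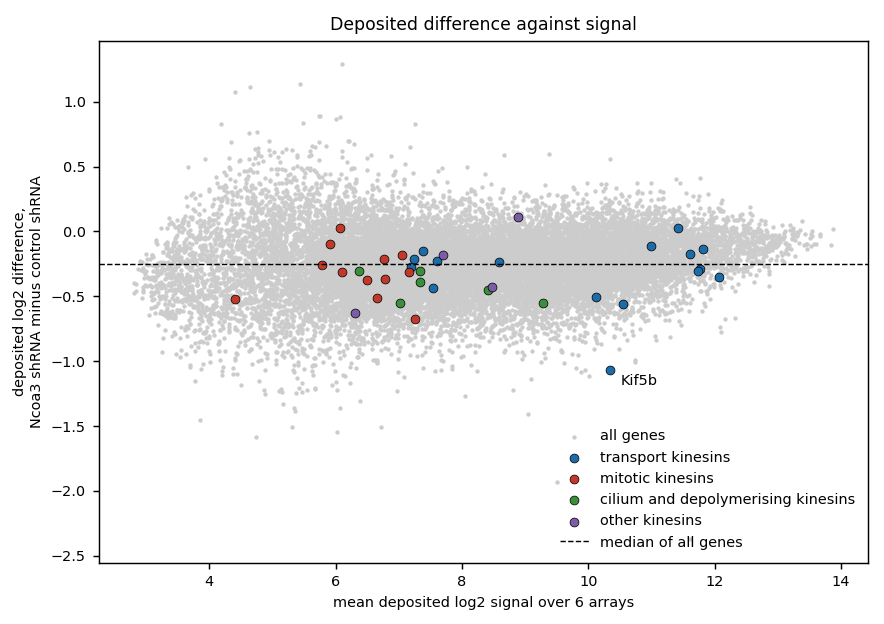
Deposited log2 difference (Ncoa3 shRNA minus control shRNA) of all 18166 genes against their mean deposited signal over 6 arrays, with the kinesin genes in colour and a dashed line at the median of all genes, -0.25. Kif26b at 0.11 is one of 3 members above 0, and Kif5b at -1.07 lies below each of the 500 genes nearest to it in signal.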

How the data were processed

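RNA of 6 cultures was measured on single-colour Affymetrix arrays. Per probe set and array the authors deposited 1 log2 signal. The submitters' processing notes name Affymetrix Expression Console and no version. Their summarisation, normalization and build were not given in the sources used here. Of 36685 probe sets, 18511 have 1 symbol in the platform's annotation, which can be old, and the brightest per symbol gave 18166 genes. All 38 members' symbols are in the RefSeq gene table.

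The deposited values were quantile-normalized over all probe sets. Linear models (lmFit and eBayes with trend, two-sided) came from limma 3.58.1 under R 4.3.3. P-values were adjusted by Benjamini-Hochberg across the 18166 genes, and 0.05 was the threshold. The labels give a number to each shared experiment, so a blocked fit is printed where it alters a call. Deviations from the group means correlated within experiments at 0.75, 0.56 and 0.80 (across genes, not independent points). The design text calls the replicates biological. The fit was tested on simulated data.

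By the rule for named genes, members past the test and 11 others listed by role are given on each array, and up to 3 genes past the test per direction of each partner list are named. Array values of Kif1c, Kif13a and Kif18a were chosen after being seen. Members and lists were chosen with earlier results of these data known. The number of arrays limits the precision.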

Additional observations from a re-analysis of the deposited data

How the results depend on the processing

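The count of kinesin genes that rose, 2, was 1 with arrays centred on their medians and 1 with only the 13570 genes above the sensory receptor level tested, and 0 to 8 when an array or an experiment was left out. The count that fell, 4, became 21 in the deposited values, 2 with centred arrays, 10 with the replicate block, 25 with both deposited values and the block, 1 with the dim genes removed and 0 to 11 with an array or experiment left out. All genes past the test, 3548, became 8579, 1868, 7147, 10932 and 1099 under the same settings, and 99 to 8352 with one left out, lowest without experiment 2 and highest without experiment 3. The median of the transport kinesins, -0.01, was -0.25 in the deposited values with or without the block, 0.027 with centred arrays and -0.11 to 0.051 with one left out. That of the mitotic kinesins, -0.03, was -0.31 in the deposited values with or without the block, -0.086 without dim genes and -0.080 to -0.00073 with one left out. Ncoa3 kept its direction in every fit, with a range of -1.13 to -0.87 when one was left out. Members that differed between experiments, 7, became 1 in the deposited values, 23 with centred arrays, 2 without a trend and 0 to 3 with one array left out. Shares of all genes with centred arrays, without a trend or with one array left out were not counted. The cause of these shifts was not tested.

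Members whose change turned sign in the deposited values, with or without the block, were Kif1a (-0.14), Kif1c (-0.28), Kif2c (-0.10), Kif4a (-0.26), Kif4b (-0.21), Kif12 (-0.18), Kif13a (-0.23), Kif13b (-0.15), Kif18b (-0.18), Klc2 (-0.11), Klc3 (-0.21) and Klc4 (-0.23), where the median gene was at -0.25. Kif3c was at 0.11 with centred arrays. With an array or experiment left out, signs turned for Kif1a (-0.032 to 0.075), Kif1c (-0.078 to 0.10), Kif2b (-0.065 to 0.020), Kif3c (-0.13 to 0.059), Kif4a (-0.045 to 0.084), Kif6 (-0.089 to 0.060), Kif9 (-0.060 to 0.046), Kif13a (-0.091 to 0.20), Kif15 (-0.22 to 0.0041), Kif18a (-0.17 to 0.22), Kif24 (-0.29 to 0.024) and Klc4 (-0.021 to 0.18). None of these members passed in the fit reported above. Kif1c, Kif4a, Kif4b, Kif12 and Klc3 passed with the turned sign in the deposited values. With the block added there, Kif12 did not pass (adjusted p = 0.0530) and Kif13a did (0.0436). With an array or experiment left out, Kif2c, at 0.17, passed in 2 of 9 fits and Kif13b, Klc2, Klc3 and Klc4 in 1 each. The 6 members that passed in the fit reported above kept their sign in all fits listed here. A fit that used the mean of all probe sets of a gene left the calls of all 38 members as they were.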
